A study of Homo sapiens with 20 samples.

Results

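The 10 genes described here are the 8 BH3-only genes BBC3, PMAIP1, BCL2L11, BID, BAD, BIK, BMF and HRK and the pore-forming genes BAX and BAK1. They were taken by gene symbol from 58288 genes counted by RNA sequencing, of which 16478 had enough counts to be tested. The cells were DOHH2 and U2932, established human B-cell lymphoma lines labelled as diffuse large B-cell lymphoma, treated with a compound labelled only TK or with its solvent DMSO. In DOHH2 there were 3 DMSO and 3 TK libraries at 8 h, and 2 DMSO and 3 TK libraries at 18 h. In U2932 there were 3 DMSO and 2 TK libraries at 8 h, and 1 DMSO and 3 TK libraries at 18 h. All libraries were made from polyadenylated RNA, no dose is given, and each line stands for itself alone. The labels do not say that replicates were separate cultures, so every p-value measures the spread between these libraries, which may be technical.

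BAX and BAK1 proteins form the pores in the outer mitochondrial membrane that release cytochrome c and commit a cell to apoptosis. Pro-survival proteins such as BCL2 and MCL1 hold them in check, and BH3-only proteins trigger them, either by binding the pro-survival proteins or by activating BAX and BAK1 directly. Many BH3-only genes are switched by transcription in response to stress, BBC3 (PUMA) and PMAIP1 (NOXA) among them, and BCL2L11 (BIM) by FOXO factors, while BID and BAD are known mainly for control of the protein. B-cell lymphomas often resist death through high BCL2 or loss of such triggers. The libraries report RNA only.

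The promoters of 4 members are printed. BBC3 and PMAIP1 had the largest changes with TK in DOHH2 at 18 h among the 8 members with more than 14 counts there. BCL2L11 differed between the lines, and HRK was nearly absent in DOHH2. HRK had enough counts to be tested only through U2932, so its difference between the lines is not counted as a result. Each window runs from 250 bases before to 50 bases after a RefSeq transcript start (GRCh38.p14), 5′ to 3′ on the gene's strand. Entries existed for 9 of the 10 members, with 15 windows in all, and BIK had none. Capitals mark the FOXO core GTAAACA, searched on both strands.
BBC3, chr19:47232618-47232917, minus strand: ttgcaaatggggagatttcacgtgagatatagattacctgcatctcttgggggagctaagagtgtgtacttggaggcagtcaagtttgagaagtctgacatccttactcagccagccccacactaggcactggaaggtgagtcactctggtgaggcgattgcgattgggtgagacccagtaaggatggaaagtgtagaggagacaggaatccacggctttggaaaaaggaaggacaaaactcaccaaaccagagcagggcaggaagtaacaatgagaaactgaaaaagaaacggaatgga
PMAIP1, chr18:59899746-59900045, plus strand: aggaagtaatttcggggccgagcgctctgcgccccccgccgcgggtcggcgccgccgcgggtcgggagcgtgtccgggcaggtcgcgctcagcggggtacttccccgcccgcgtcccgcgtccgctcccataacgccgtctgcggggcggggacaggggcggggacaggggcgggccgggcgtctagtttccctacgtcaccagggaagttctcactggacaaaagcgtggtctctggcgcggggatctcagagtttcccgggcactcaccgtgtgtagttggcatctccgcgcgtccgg
BCL2L11, chr2:111120664-111120963, plus strand: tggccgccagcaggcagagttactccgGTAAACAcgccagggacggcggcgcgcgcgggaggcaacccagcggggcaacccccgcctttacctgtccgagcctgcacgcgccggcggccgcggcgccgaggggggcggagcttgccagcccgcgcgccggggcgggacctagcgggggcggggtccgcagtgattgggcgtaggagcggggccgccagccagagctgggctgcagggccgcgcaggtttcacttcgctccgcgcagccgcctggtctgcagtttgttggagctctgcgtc
HRK, chr12:116881392-116881691, minus strand: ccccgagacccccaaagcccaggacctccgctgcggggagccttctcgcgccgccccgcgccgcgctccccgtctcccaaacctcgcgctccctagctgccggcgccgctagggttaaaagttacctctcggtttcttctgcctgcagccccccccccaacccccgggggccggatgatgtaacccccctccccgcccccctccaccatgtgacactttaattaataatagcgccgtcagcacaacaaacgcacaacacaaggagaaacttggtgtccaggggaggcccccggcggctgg

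The FOXO core lay 223 to 217 bases before the BCL2L11 start and in no other member's window, and 3.42% of all promoters held it. The windows also differed in base composition, with 42 CpG dinucleotides for PMAIP1, 39 for BCL2L11, 25 for HRK and 5 for BBC3, against a median of 14 over all promoters. A match in these letters is a description and shows no binding.

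The libraries held 30363255 to 52275430 counts in genes, and levels are given as CPM, counts scaled to library size, after TMM scaling. In 1 library, DOHH2 TK 18 h replicate 1, 56.6% of all counts had no unique alignment, against 20.7 to 34.3% in the others. Mitochondrial genes held 3.29% of gene counts in DOHH2 TK 8 h replicate 1 and 5.06 to 8.08% in the remaining libraries. The main results on the members that involve these libraries are also given without them. The identity of the lines was taken from the labels and was not checked in another way. All 6 B-cell markers examined were present in both lines, and the summed level of 4 T-cell markers was at most 0.525 CPM and of 4 myeloid markers at most 1.995 CPM. The 4 epithelial or stromal markers summed to 6.83 to 30.8 CPM in DOHH2 and 22.2 to 33.3 CPM in U2932, and their part in the results was not tested.

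**Figure D1:**
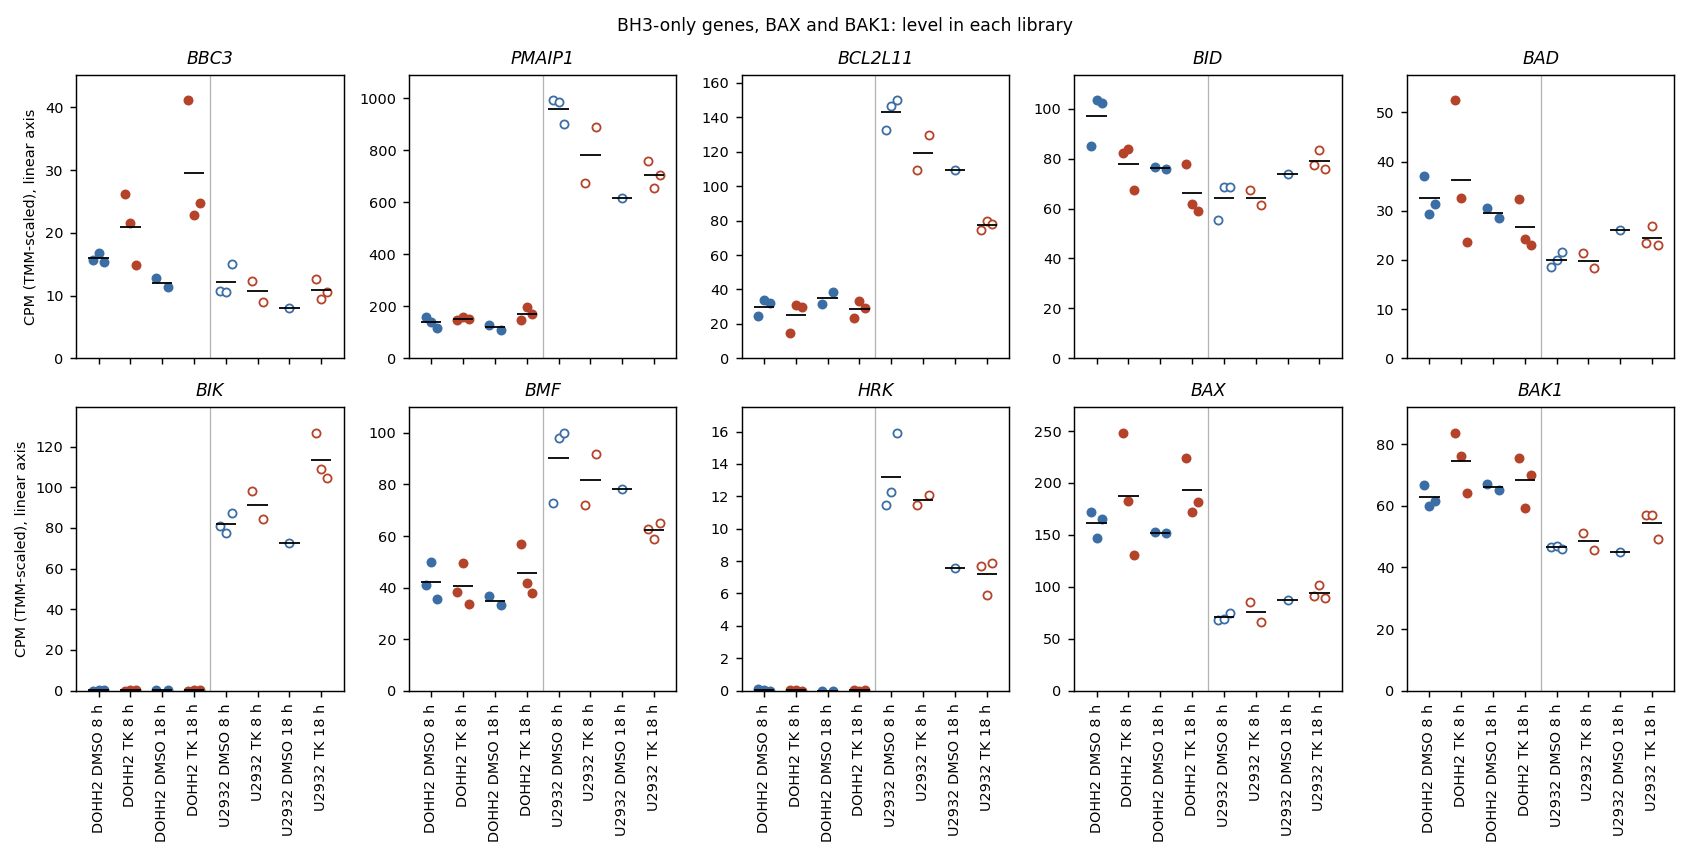
Level of each of the 10 genes in every library, in CPM on linear axes that start at 0. Blue points are DMSO, red points TK, filled points DOHH2, open points U2932, and black bars are group means. BIK and HRK lie at or near 0 in all 11 DOHH2 libraries, and the highest BBC3 value, 41.1 CPM, is DOHH2 TK 18 h replicate 1.

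The lines carried different sets of these genes: DOHH2 held almost no HRK and BIK RNA and far less PMAIP1 and BCL2L11 than U2932, but more BAX and BAK1. Per kilobase of exon, DOHH2 expressed BAX most, at a median over its 11 libraries of 66.5 CPM per kilobase, and PMAIP1 at nearly the same level of 66.0. BAK1 followed at 30.2 CPM per kilobase, BAD at 17.9 and BID at 17.5. BMF at 7.03, BBC3 at 5.26 and BCL2L11 at 4.67 CPM per kilobase formed a lower tier. BAD and BID overlapped over the libraries, as did BBC3 with BMF and with BCL2L11, whereas BMF lay above BCL2L11 in every library. BIK at 0.17 and HRK at 0.0041 CPM per kilobase were close to absent.

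In U2932 the order was another one. PMAIP1, whose protein binds MCL1, led at a median over 9 libraries of 340 CPM per kilobase, 62.0% of the sum of the 10 medians, and BIK, whose protein sits at the endoplasmic reticulum, came next at 91.5. BAX stood at 33.1 and BAK1 at 21.2 CPM per kilobase. BCL2L11 at 16.4, BID at 15.4, BMF at 13.4 and BAD at 12.6 CPM per kilobase overlapped in their ranges. BBC3 at 3.35 and HRK at 1.67 CPM per kilobase were lowest, so BBC3 ranked seventh of 10 in DOHH2 and ninth of 10 in U2932.

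**Figure D2:**
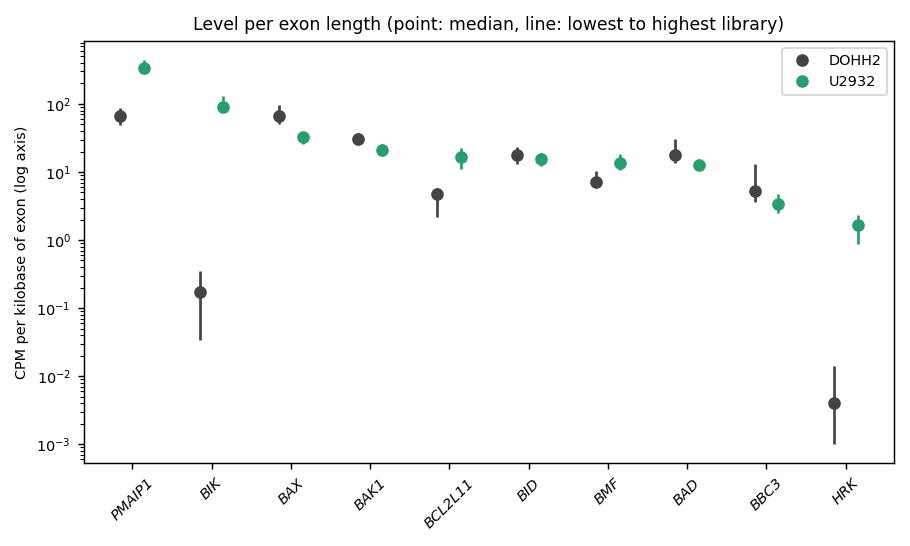
Level per kilobase of exon (log axis) of each gene in DOHH2 and U2932, with the median as a point and the lowest to highest library as a line; libraries at 0 are drawn at the bottom of the axis. PMAIP1 leads in U2932 at 340 CPM per kilobase, whereas BAX and PMAIP1 share the top in DOHH2 at 66.5 and 66.0.

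The comparison of the lines in DMSO at 8 h asks how untreated cells differ. HRK, a BH3-only gene best known in neurons, had 3, 2 and 0 counts in the DOHH2 libraries and 11.5, 12.3 and 15.9 CPM in the U2932 libraries. Summed over the libraries, 5 counts stood against 1396, a ratio of 299 (exact 95% counting interval 128 to 922). At 18 h both DOHH2 DMSO libraries had no HRK count, and U2932 was at least 94.1-fold higher against a floor of 3 counts per library. BIK had 16 counts over the 3 DOHH2 libraries against 8626 in U2932, a ratio of 577 (355 to 1010). These intervals cover counting error only. In every one of the 11 DOHH2 libraries HRK had at most 3 counts and BIK at most 14, so treatment and time could not be compared for either gene in that line.

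PMAIP1 was 6.92-fold lower in DOHH2, at 160, 139 and 117 CPM in DMSO at 8 h against 991, 984 and 902 CPM in U2932 (log2 difference -2.79 ± 0.145 SE, edgeR adjusted p = 5.71e-13). BCL2L11, which encodes BIM, the direct activator that shapes normal B-cell survival, was 4.75-fold lower, at 24.3, 33.9 and 32.1 CPM against 133, 146 and 150 CPM (edgeR adjusted p = 7.05e-09). BMF, whose protein docks on the dynein motor, was 2.14-fold lower, with 42.2 ± 7.3 CPM (SD, n = 3) against 90.3 ± 15.1 (SD, n = 3). For all 3 genes the lines did not overlap, as in 37.9% of all tested genes, which lay below in DOHH2 in this way, and 35.9%, which lay above. RNA of a whole culture was measured, so a smaller share of expressing cells and less RNA per cell cannot be told apart.

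The pore-forming genes went the other way. BAX was 2.28-fold higher in DOHH2, at 172, 147 and 165 CPM against 68.1, 68.6 and 75.0 CPM in U2932 (log2 difference 1.19 ± 0.17 SE, edgeR adjusted p = 3.1e-06). BAK1 was higher by 0.43 on the log2 scale, with 62.7 ± 3.52 CPM (SD, n = 3) against 46.5 ± 0.491 (SD, n = 3), edgeR adjusted p = 0.00332. Of the BH3-only genes, BAD, whose protein is silenced by phosphorylation, was higher in DOHH2 by 0.70 (edgeR adjusted p = 0.00467), and BID, whose protein is cut by caspase-8, by 0.60 (edgeR adjusted p = 0.000414). BBC3 had a log2 difference of 0.39 that did not pass the test (edgeR adjusted p = 0.121), though it was called at 0.58 without U2932 DMSO 8 h replicate 3 (edgeR adjusted p = 0.0444).

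HRK passed the filter on low counts only through U2932, so its difference was fixed by the filter. BIK had at most 14 counts in any DOHH2 library, and neither gene is counted here. Of the other 8 genes 4 were higher and 3 lower in DOHH2 in DMSO at 8 h, where 67.8% of all tested genes were called. With TK at 18 h, a comparison that shares no library with the former, 3 of the 8 were higher and 3 lower, where 69.2% of all tested genes were called. PMAIP1 was then 4.11-fold and BCL2L11 2.72-fold lower in DOHH2, and BIK had a ratio of 698 (447 to 1160). BAX remained higher, by 1.04 (edgeR adjusted p = 1.66e-05). BBC3 was 2.71-fold higher in DOHH2, at 41.1, 22.9 and 24.7 CPM against 12.6, 9.53 and 10.6 CPM (log2 difference 1.44 ± 0.223 SE, edgeR adjusted p = 9.2e-06). Without DOHH2 TK 18 h replicate 1 the differences were 1.12 for BBC3, 0.91 for BAX, -1.94 for PMAIP1 and -1.32 for BCL2L11, all called by edgeR. BID had a value of -0.25 and BAD of 0.12, neither past the threshold with edgeR and TMM scaling, but BID was called at -0.30 with DESeq2 (adjusted p = 0.0408) and with RLE scaling (edgeR adjusted p = 0.0485). BMF at -0.45 (edgeR adjusted p = 0.0283) and BAK1 at 0.33 (edgeR adjusted p = 0.0207) were called, and leaving out DOHH2 TK 18 h replicate 3 or U2932 TK 18 h replicate 3 ended either call. For BMF, leaving out U2932 TK 18 h replicate 1 or DOHH2 TK 18 h replicate 2 did so too, and for BAK1 leaving out DOHH2 TK 18 h replicate 1 or testing without a filter on low counts (0.31, edgeR adjusted p = 0.102). Without DOHH2 TK 18 h replicate 1, BID passed at -0.38 (edgeR adjusted p = 0.0113) and BAD stood at -0.05. The line comparisons in DMSO at 8 h and with TK at 18 h differ in both time and treatment, and the change from the former to the latter was not tested. Tests of TK between the lines at a single time are given further on.

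**Figure D3:**
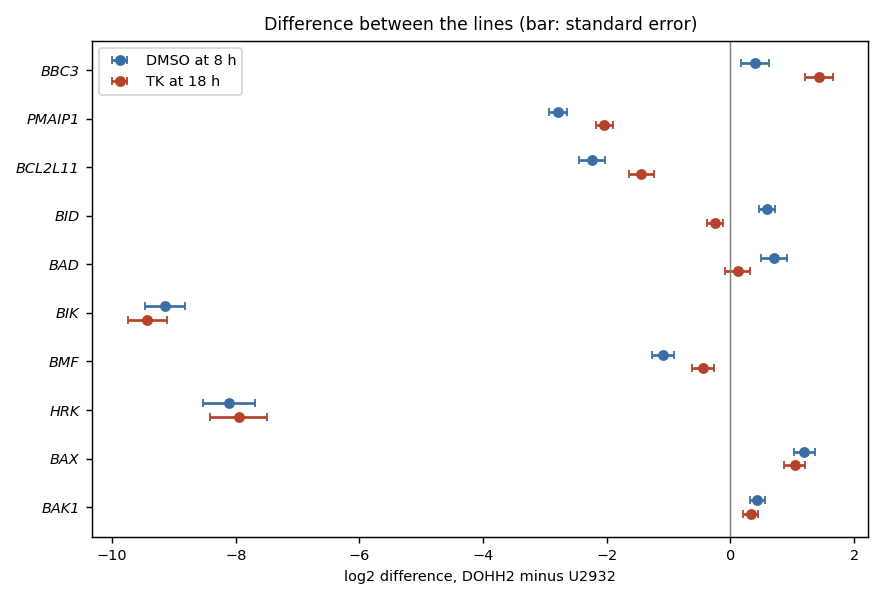
Log2 difference between DOHH2 and U2932 for each gene in DMSO at 8 h (blue) and with TK at 18 h (red), with standard errors; values below 0 are lower in DOHH2. BIK and HRK lie near -9 and -8, fitted values that depend on the handling of near-zero counts. BBC3 has 0.39 in DMSO at 8 h and 1.44 with TK at 18 h, comparisons that differ in both time and treatment.

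The pro-survival genes that these triggers oppose also differed. Of 6 tested, BCL2L10 passed the filter on low counts only through U2932. Of the other 5, 4 were lower and 1 higher in DOHH2 in DMSO at 8 h, where 67.8% of all tested genes were called. MCL1, the partner of the PMAIP1 protein, stood at 246 ± 10.3 CPM (SD, n = 3) in DOHH2 and 2588 ± 205 (SD, n = 3) in U2932, so PMAIP1 and MCL1 were both lower in DOHH2. BCL2 stood at 166 ± 39.2 CPM (SD, n = 3) against 928 ± 39.5 (SD, n = 3). BCL2L2 was the gene higher in DOHH2, by 2.75 on the log2 scale (edgeR adjusted p = 2.92e-12).

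With TK in DOHH2 at 18 h, BBC3 had the largest change of the 8 members that had more than 14 counts in that line. It encodes PUMA, a BH3-only protein that binds every pro-survival member. BBC3 stood at 12.7 and 11.4 CPM in DMSO and at 41.1, 22.9 and 24.7 CPM with TK. All 3 TK libraries lay above both DMSO libraries, and the highest was replicate 1, the library with 56.6% of counts not uniquely aligned. The change was 2.45-fold (log2 1.29 ± 0.255 SE, 95% interval 0.79 to 1.79), with an edgeR adjusted p of 0.0594, just over the threshold of 0.05. It ranked at position 16 by p among the 16478 genes. Without TK replicate 1 at 18 h it was 0.98 with an adjusted p of 0.102, and without replicate 1 of TK at both times 0.98 with an adjusted p of 0.0420 (edgeR).

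**Figure D4:**
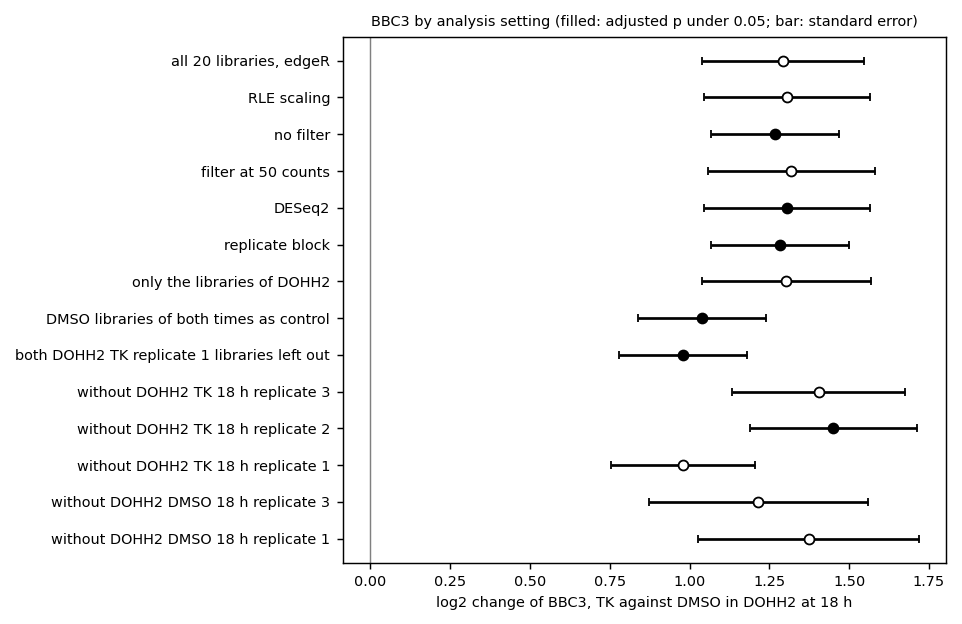
Log2 change of BBC3 with TK in DOHH2 at 18 h under each of 14 analysis settings, with standard errors; filled points have an adjusted p under 0.05 and open points do not. The values run from 0.98 to 1.45, and 6 of the 13 alternatives pass the threshold.

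PMAIP1 stood at 130 and 108 CPM in DMSO and at 147, 197 and 172 CPM with TK in DOHH2 at 18 h, with no overlap. Its log2 change was 0.53 ± 0.154 SE (edgeR adjusted p = 0.272), and 0.63 without TK 18 h replicate 1. BAX had 153 and 152 CPM in DMSO and 224, 172 and 182 CPM with TK, a log2 change of 0.34 ± 0.188 SE (edgeR adjusted p = 0.646). BMF had 36.6 and 33.3 CPM against 57.0, 41.8 and 37.9 CPM, a log2 change of 0.38 ± 0.198 SE (edgeR adjusted p = 0.607). Both groups were apart for BAX and BMF as well, and in both genes replicate 1 was the highest TK library. Without it the changes were 0.22 for BAX and 0.19 for BMF. The DMSO libraries at 8 h reached 160 CPM for PMAIP1, above its TK library at 147 CPM. For BMF, DMSO 8 h replicate 2 lay above the TK libraries at 41.8 and 37.9 CPM. The highest BAX library in DMSO at 8 h stood at 172 CPM, level with the lowest TK library. Against the DMSO libraries of both times the log2 changes were 0.39 for PMAIP1, 0.29 for BAX and 0.21 for BMF. None was called by edgeR, and that control mixes time and treatment.

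The remaining members showed no called change in that comparison. BCL2L11 had a log2 change of -0.30, BID of -0.20, BAD of -0.15 and BAK1 of 0.04 (95% interval -0.22 to 0.31), each with overlapping groups. HRK and BIK left aside, 0 of 8 genes were called where 0.0728% of all tested genes were, 12 in number. By edgeR 2 of the 8 had an unadjusted p under 0.05, beside 8.56% of all tested genes. DESeq2 called 1 of the 8, BBC3, and 85 of the 16478 genes. In 4 of the 8 genes the TK libraries lay above the DMSO libraries without overlap, and in none below. Among all tested genes 11.9% lay above and 13.2% below in this way.

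**Figure D5:**
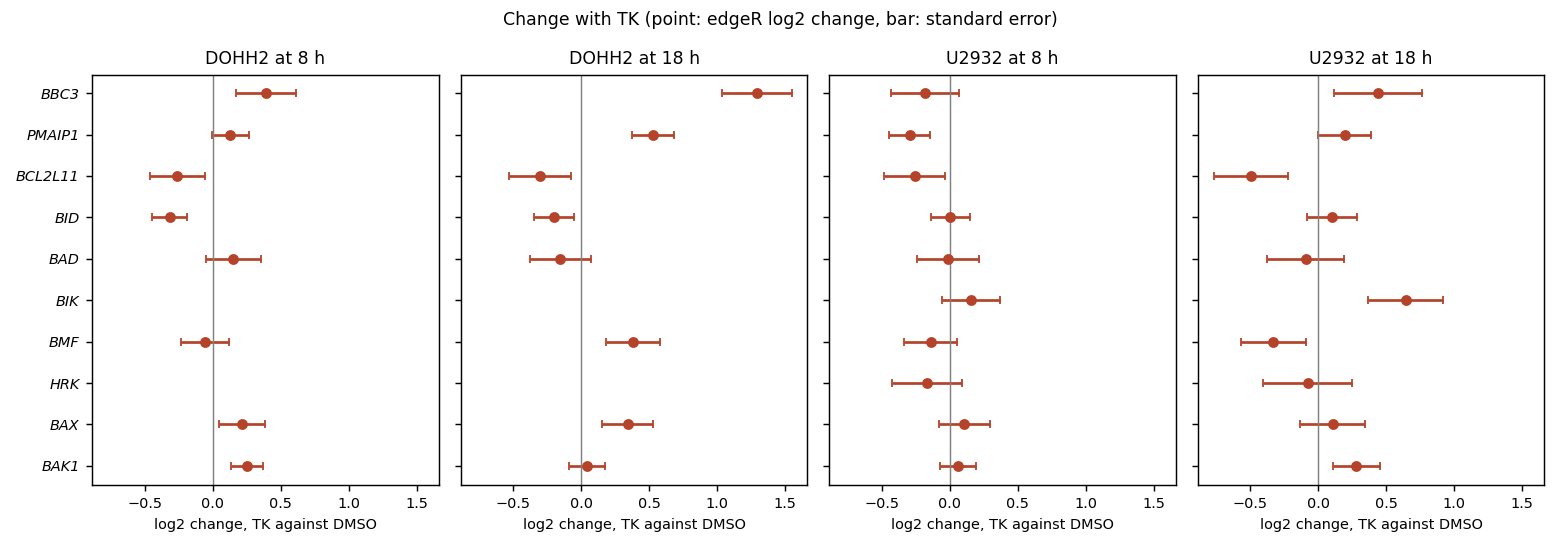
Log2 change with TK against DMSO for each gene in each line and time, with standard errors; BIK and HRK are left out in DOHH2, where their counts were near 0. BBC3 in DOHH2 at 18 h has the largest value drawn, 1.29, and the single DMSO library of U2932 at 18 h widens the errors in that panel.

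At 8 h in DOHH2 no member was called, nor any of the tested genes (0%), though 2 of the 8 members compared had an unadjusted p under 0.05 in edgeR, beside 3.02% of all tested genes. DESeq2 called no member either. BBC3 stood at 15.7, 16.7 and 15.4 CPM in DMSO and at 26.2, 21.6 and 14.8 CPM with TK, overlapping groups with a log2 change of 0.39 ± 0.219 SE. BID had 85.1, 103 and 102 CPM in DMSO and 82.1, 83.8 and 67.5 CPM with TK, which did not overlap (log2 change -0.32, edgeR adjusted p = 1), while 2.85% of all tested genes lay below in this way. BAK1 had a log2 change of 0.25 (edgeR adjusted p = 1). For BAD and BAX the highest TK library at 8 h was replicate 1, at 52.4 and 248 CPM, the library with few mitochondrial counts. BCL2L11 was lowest there, at 14.6 CPM against 31.1 and 29.7 CPM in the other TK libraries. Without that library the log2 change of BBC3 was 0.20, of BID -0.36 and of BAK1 0.16. BAD went from 0.15 to -0.22, BAX from 0.22 to -0.04 and BCL2L11 from -0.26 to 0.01, none of them called by edgeR with or without it.

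In U2932 BBC3 ranged from 8.06 to 14.999 CPM over the 9 libraries. BBC3 had 8.06 CPM in the single DMSO library at 18 h and 12.6, 9.53 and 10.6 CPM with TK, but the DMSO libraries at 8 h reached 10.8, 10.5 and 14.999 CPM, so the TK values lay within the range of all U2932 DMSO libraries. The log2 change at 18 h was 0.44 ± 0.322 SE (edgeR adjusted p = 0.814), and -0.02 against the DMSO libraries of both times. PMAIP1 had 617 CPM in DMSO and 760, 655 and 704 CPM with TK at 18 h, a log2 change of 0.19 that became -0.31 against the DMSO libraries of both times. In all, 0 of 10 genes were called at 18 h, where 0.0182% of tested genes were. One member, BIK, had an unadjusted p under 0.05 (edgeR adjusted p = 0.627), beside 7.45% of all tested genes, with 72.7 CPM in DMSO and 127, 109 and 105 CPM with TK. DESeq2 called no member. BIK reached 87.2 CPM in the U2932 DMSO libraries at 8 h, below its 3 TK libraries at 18 h, and 98.1 CPM with TK at 8 h. Its log2 change at 18 h was 0.51 to 0.71 over the alternatives, none of them called.

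BCL2L11 in U2932 had the lowest values with TK at 18 h. It stood at 133, 146 and 150 CPM in DMSO and 109 and 130 CPM with TK at 8 h, and at 109 CPM in DMSO and 74.8, 80.0 and 77.9 CPM with TK at 18 h. At 8 h both TK libraries lay below the 3 DMSO libraries, as did 7.24% of all tested genes. At 18 h the 3 TK libraries lay below the single DMSO library, as did 32.7% of all tested genes, and 31.2% lay above it. The log2 change was -0.26 ± 0.225 SE at 8 h and -0.49 ± 0.276 SE at 18 h (edgeR adjusted p = 0.725). Against the DMSO libraries of both times it was -0.79 ± 0.196 SE (edgeR adjusted p = 0.0196), a control in which time and treatment are mixed. The same gene in DOHH2 had values of -0.26 at 8 h and -0.30 at 18 h, and the difference between the lines at 18 h was 0.19 ± 0.362 SE (edgeR adjusted p = 0.984).

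At 8 h in U2932 no member and no tested gene was called (0%), with 1.67% of all tested genes but no member at an unadjusted p under 0.05 in edgeR and no member called by DESeq2. PMAIP1 stood at 673 and 890 CPM with TK against 991, 984 and 902 CPM in DMSO, a log2 change of -0.30 ± 0.152 SE. It and BCL2L11 were the members whose TK libraries lay below all DMSO libraries. BBC3 had a value of -0.18, BAX of 0.11 and BAK1 of 0.06.

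Whether TK acted differently in the lines was tested as an interaction. At 18 h the change of BBC3 was larger in DOHH2 than in U2932 by 0.85 ± 0.396 SE (edgeR adjusted p = 0.781), and by 0.54 without DOHH2 TK 18 h replicate 1. BMF had 36.6 and 33.3 CPM in DMSO and higher values with TK in DOHH2, and 78.2 CPM in DMSO and 62.9, 58.7 and 65.0 CPM with TK in U2932. The difference of its changes was 0.71 ± 0.312 SE (edgeR adjusted p = 0.77), and 0.52 without that library. No member was called, where 0.0243% of tested genes were at 18 h and 0% at 8 h. Between the times, the change of BBC3 with TK in DOHH2 was larger at 18 h by 0.90 ± 0.332 SE (edgeR adjusted p = 1), and by 0.59 without TK 18 h replicate 1. Again no member was called in DOHH2, where 0.0121% of tested genes were, nor in U2932, where 0.00607% were. By unadjusted p under 0.05 in edgeR the test of the lines held 2 of 8 members at 18 h, beside 6.17% of all tested genes, and 1 of 8 at 8 h, beside 1.92%. The test of the times held 1 of 8 members in DOHH2, beside 4.32%, and 0 of 10 in U2932, beside 3.11%. DESeq2 called no member in any of the 4 tests.

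Time itself moved no member past the threshold. Of the 8 genes compared in DOHH2, 0 were called between 18 h and 8 h with TK, where 1.57% of tested genes were, and 0 with DMSO, where 0.631% were. Of 10 genes the counts were 0 in U2932 with TK, beside 0.218% of tested genes, and 0 in U2932 with DMSO, beside 0.0364%. In DOHH2, 2 of 8 members had an unadjusted p under 0.05 in edgeR with TK, beside 18.0% of tested genes, and 1 of 8 with DMSO, beside 10.8%. In U2932, 2 of 10 did so with TK, beside 18.7%, and 2 of 10 with DMSO, beside 11.4%. With DESeq2 the single member called was HRK in U2932 with TK, at -0.71 on the log2 scale (DESeq2 adjusted p = 0.0348), among 860 genes that DESeq2 called there. HRK in U2932 stood at 11.5 to 15.9 CPM in the 5 libraries at 8 h and at 5.93 to 7.87 CPM in the 4 libraries at 18 h, with either agent. Among all tested genes 21.7% lay lower at 18 h without overlap with TK. With DMSO, where 18 h is 1 library, 30.9% did. With TK 3 of the 10 members lay below in this way and 4 above. BCL2L11 was among those below, at -0.62 (edgeR adjusted p = 0.147). PMAIP1 in U2932 with DMSO was at 902 to 991 CPM at 8 h and 617 CPM at 18 h (log2 -0.64 ± 0.199 SE, edgeR adjusted p = 0.269). BBC3 in DOHH2 had a time difference of 0.50 with TK and of -0.40 with DMSO. The former was 0.19 once the TK replicate 1 library of 18 h was left out, and 0.70 once that of 8 h was. BAD in DOHH2 with TK had a time difference of -0.44 that was called once TK 8 h replicate 3 was left out, at -0.68 (edgeR adjusted p = 0.0295), and that was -0.08 without TK 8 h replicate 1 (edgeR adjusted p = 0.889).

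Other genes of the pathway, from lists drawn up with earlier results of these data known, gave the setting of these values. Among 6 pro-survival genes none was called with TK in either line or time. In DOHH2 at 18 h the median of the 5 without BCL2L10, which was near 0 there, was 0.22, with the smallest p for BCL2 at 0.38 (edgeR adjusted p = 0.652). No call was made with TK either among 6 other BCL2 family genes, 7 transcription factors acting on BH3-only genes, 8 genes that act after pore formation and 6 partners of BH3-only proteins. The smallest p values in DOHH2 at 18 h belonged to BNIP3, a mitophagy receptor, at -0.35, to DDIT3 (CHOP), a stress factor, at 0.58, to DIABLO, released from mitochondria to block caspase inhibitors, at -0.23, and to DYNLL2, the dynein light chain that holds BMF, at -0.20.

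The genes whose log2 levels followed BBC3 most closely over the 11 DOHH2 libraries were TNFSF9 (Pearson r = 0.964), KLK1 (0.959) and DENND1C (0.938), among 10079 candidates. For PMAIP1 they were BLOC1S2 (0.925), KRCC1 (0.915) and FAM107B (0.914). These are descriptions over libraries that share treatment and time, chosen as the highest of many.

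Annotation places limits on several members (GENCODE v29, GRCh38). BBC3 lies at chr19:47220822-47232766 on the minus strand, PMAIP1 at chr18:59899948-59904306 on the plus strand and BCL2L11 at chr2:111119378-111168447 on the plus strand. HRK lies at chr12:116856144-116881441 on the minus strand and BIK at chr22:43110748-43129712 on the plus strand. The strand setting of the counting is not given in the sources used here. Exons of BAD overlap those of GPR137 on the other strand over 23.7% of their length, BCL2L11 those of MIR4435-2HG over 10.9%, BMF those of BMF-AS1 over 8.46% and BAK1 those of GGNBP1 over 4.11%. Whether reads from these parts were told apart depends on that setting and is not known. BAK1 also has the pseudogenes BAK1P1 and BAK1P2 elsewhere in the genome, which can share its reads.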

How the data were processed

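RNA sequencing counts of 20 libraries were used. Per the submitters' processing notes, the authors used STAR, HTSeq and edgeR with genome build GRCh38.p10; their versions, the annotation release and the strand setting are not given there or in the labels. What was deposited are raw counts, whole numbers, for 58288 genes, with 5 summary rows of unassigned reads (32.7 to 62.7% of all counts) left out of library sizes and tests.

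All libraries were fitted together with edgeR 4.0.16 (R 4.3.3; limma 3.58.1), with 1 coefficient for each of 8 groups, TMM scaling and robust quasi-likelihood F tests. Genes with at least 0.288 CPM (10 counts in the median library) in at least 3 libraries were tested, 16478 of 34160 with any count. P-values were adjusted by Benjamini-Hochberg over all of them, with a threshold of 0.05. All 10 members passed this filter, HRK only through U2932. Member counts that involve DOHH2 leave out HRK, and also BIK, which had at most 14 counts in any library of that line. The lone U2932 DMSO library at 18 h was taken to vary as the replicated groups do. CPM use the totals of the genes tested. Standard errors come from the fitted test statistic, and 95% intervals are 1.96 SE to each side.

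Replicates of a group differed beyond sampling noise in all 17 pairs (chi-square per degree of freedom 15.8 to 209.5). The fit was checked on simulated data. Alternatives were DESeq2 1.42.0, RLE in place of TMM scaling, a filter at 50 counts or none, a replicate block, 1 line alone, DMSO of both times as control, and libraries left out. The members and lists were chosen with earlier results of these data known. All members are named, and from each list the genes called with TK (at most 4), otherwise the one with the smallest p in DOHH2 at 18 h. Likeness was taken over genes of at least 5 CPM. Results on 1 gene and its target genes are not reported here.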

Additional observations from a re-analysis of the deposited data

How the results depend on the processing

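Counts of members called were recomputed over all 10 members, with HRK and BIK included. Of 177 such counts, 166 were equal to or within 1.5 times that of the main fit, and 11 were larger. For the lines with TK at 18 h the main fit called 3 members higher and 5 lower, beside 69.2% of all tested genes. The alternatives there called 6 to 9 members. For the lines in DMSO at 8 h it was 4 higher and 5 lower, beside 67.8%, and 9 to 10 in the alternatives. For TK in DOHH2 at 18 h the count went from 0 to 1, BBC3 each time, without a filter (adjusted p = 5.06e-07), with DESeq2 (0.000495), with a replicate block (0.0363), with DMSO of both times as control (1.04 on the log2 scale, 0.0183) and without both TK replicate 1 libraries (0.98, 0.0420). All genes called in those settings, in that order, were 170 of 34160, then 85, 10, 62 and 76 of 16478. With 1 library left out in turn the member count ranged from 0 to 1, and BBC3 from 0.98 to 1.45. The 1 was without TK 18 h replicate 2 (adjusted p = 0.0436, edgeR), where 8 genes were called. For TK in U2932 at 18 h the member count was 1 with DMSO of both times as control, where 1654 of 16478 genes were called. BBC3 became -0.0201 and PMAIP1 -0.31 with that control. For 18 h against 8 h with TK in DOHH2 the member count ranged from 0 to 1 with 1 library left out. The 1 was BAD without TK 8 h replicate 3, where 1268 of 16478 genes were called. For the same comparison in U2932 the member count was 1 without a filter (BCL2L11, -0.61), where 739 of 34160 genes were called. It was 1 with DESeq2 (HRK), where 860 of 16478 were. With the U2932 libraries alone BCL2L11 (-0.63) and HRK (-0.72) both passed, a setting whose share of all genes called is not given here.

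Deviations of same-numbered libraries correlated from -0.20 to 0.64 (median 0.12 over 22 pairs) and of other pairs from -0.55 to 0.53 (median -0.01 over 44). These ranges overlap, and deviations within such small groups are tied to each other. Whether replicate numbers pair the samples was therefore not decided. With the replicate block, BBC3 in DOHH2 at 18 h was 1.28 and the line difference of BBC3 in DMSO at 8 h 0.59 (adjusted p = 0.0453), while the line difference of BMF with TK at 18 h was -0.23 (0.302). The sign reversed for 5 further values: BBC3 with TK in U2932 at 8 h ranged from -0.42 to 0.0243 with 1 library left out, and the line difference of BAD with TK at 18 h from -0.0472 to 0.21, and was -0.0470 without both DOHH2 TK replicate 1 libraries. With TK in DOHH2 at 8 h, 1 library left out gave -0.22 to 0.38 for BAD, -0.0403 to 0.42 for BAX and -0.44 to 0.0123 for BCL2L11, and without both TK replicate 1 libraries -0.21, -0.0401 and 0.0117. The cause of these differences was not tested. HRK and BIK are limited by their near-zero counts in DOHH2.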
